A study of Rattus norvegicus with 53 samples.

Results

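Peripheral blood mononuclear cells (PBMCs), the lymphocytes and monocytes of blood, were cultured with autologous serum to which interleukin-1B (IL-1B) had been added, and their gene expression was set against that of cells cultured with autologous serum alone. The comparison used 8 of the 53 arrays of the series. The IL-1B group held all 4 arrays labelled as autologous BN serum with IL-1B, replicates 1 to 4, and the control group held 4 of the 10 arrays labelled as autologous BN serum, replicates 7 to 10. The labels name no array run. Replicates 7 to 10 were taken because clustering of the expression values placed them with the IL-1B arrays and placed autologous replicates 1 to 6 in another cluster, so the choice of controls rests on these data. Results with all 10 autologous arrays are given beside the main ones.

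In both groups the cells came from healthy male BN (Brown Norway) rats aged 180 days and were cultured for 6 h with the rat's own serum at 20%. The sample titles call the additive serum and the design text calls it plasma. Neither the labels nor the design text give the dose of IL-1B or its species of origin. Further groups were used for support, with d60 DRlyp/lyp serum compared with IL-1B, with IL-1RA and with autologous serum. They were BN cells cultured with serum of 60-day-old DRlyp/lyp BioBreeding rats (a lymphopenic line that develops autoimmune diabetes), with the same serum plus IL-1RA (the interleukin-1 receptor antagonist), or with serum of 60-day-old DR+/+ rats, a related line that is shown in a plot only, with 4 arrays each. The labels do not say whether replicate arrays came from separate rats, so p-values measure only the spread between arrays, which may be technical.

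IL-1B is made as an inactive precursor, mainly by monocytes and macrophages, and is cut to its active form by caspase-1. It binds the receptor Il1r1, which recruits Il1rap, and the adaptor Myd88 then assembles the Irak kinases and Traf6. The signal ends in activation of NF-kappaB and of stress kinases, which switch on cytokines, chemokines and, within the same hours, the genes that stop the response. Outside the cell Il1rn occupies the receptor and the decoy receptor Il1r2 captures the ligand, while Nfkbia and Tnfaip3 restrain NF-kappaB inside the cell. The design text states that IL-1B was added in order to induce IL-1-dependent gene expression, so known IL-1 targets were examined first, as a list of 81 genes in 6 roles, of which 74 had a probe set.

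To show what kind of regulatory sequence the targets carry, the 250 bases before the start site of 3 of them are given, all on the minus strand of GRCr8 and credited to RefSeq. They are Cxcl1 (chr14:17479322-17479571), a neutrophil chemokine, Nfkbia (chr6:78597073-78597322), the inhibitor of NF-kappaB that is itself an NF-kappaB target, and Tnfaip3 (chr1:15543980-15544229), a ubiquitin-editing brake. Sequences run 5′ to 3′ in the sense of the gene, and capitals mark matches, on either strand, to the NF-kappaB motif, searched as a run of G, a gap of any bases, a run of T and then a run of C, with no mismatch.
Cxcl1: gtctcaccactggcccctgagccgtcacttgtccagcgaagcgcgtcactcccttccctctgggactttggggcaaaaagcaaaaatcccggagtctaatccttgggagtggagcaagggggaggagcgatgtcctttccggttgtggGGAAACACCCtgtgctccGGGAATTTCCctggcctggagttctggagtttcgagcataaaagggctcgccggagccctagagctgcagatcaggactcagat
Nfkbia: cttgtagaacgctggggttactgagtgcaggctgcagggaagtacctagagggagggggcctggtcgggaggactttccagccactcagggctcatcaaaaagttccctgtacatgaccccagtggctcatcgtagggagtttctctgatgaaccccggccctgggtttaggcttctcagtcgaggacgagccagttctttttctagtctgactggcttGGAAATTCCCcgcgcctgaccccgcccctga
Tnfaip3: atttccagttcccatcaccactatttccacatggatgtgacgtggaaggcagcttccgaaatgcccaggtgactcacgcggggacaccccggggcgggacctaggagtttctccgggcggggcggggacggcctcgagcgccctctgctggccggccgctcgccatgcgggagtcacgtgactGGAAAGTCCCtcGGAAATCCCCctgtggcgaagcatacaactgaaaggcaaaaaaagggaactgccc
The motif lay 102 and 84 bases before the start site of Cxcl1, 31 before that of Nfkbia, and 67 and 55 before that of Tnfaip3. Among 33469 rat promoter windows of the same length 1.3% held it. Of the 74 targets 52 had a window in the table, and 10 of these (19.2%) held the motif. They were Il6, Cxcl1, Cxcl2, Cxcl6, Ccl20, Il1rn, Nfkbia, Nfkbiz, Tnfaip3 and Nfkb2.

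No gene changed with IL-1B past the test. Of 31042 probe sets, 0 (0%) were called with limma at a Benjamini-Hochberg adjusted p under 0.05, and the lowest adjusted p was 0.997. At an unadjusted p under 0.05 there were 1118 probe sets (3.6%), 512 higher (1.65%) and 606 lower (1.95%) with IL-1B. Over 14217 genes, each represented by its probe set with the highest mean, 342 (2.41%) lay under that unadjusted threshold, 116 higher (0.816%) and 226 lower (1.59%). The arrays of the arms did not overlap for 60 genes that were higher (0.422%) and 158 that were lower (1.11%). The median log2 difference, IL-1B minus autologous serum, was -0.04 over all genes. Only 6 genes differed by at least 1 on the log2 scale, a 2-fold change, and 0 of them was lower.

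The 4 arrays per arm still bounded the size of a response. The median 95% interval of a gene extended 0.40 on the log2 scale to either side of its difference, and the whole interval lay inside 2-fold in either direction for 95.31% of genes. These intervals take each gene alone, cover the spread between arrays only, and bound the measured values, which RMA compresses near background.

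All IL-1 targets together showed no called change. Of 74, 0 were called, 25 were higher and 49 lower with IL-1B (59.5% of all genes were lower), and their median log2 difference was -0.05, beside -0.04 over all genes. Their differences ran from -0.44 to 0.49, and 0 of the 74 separated the arms without overlap. The upper end of the 95% interval stayed under a 2-fold increase for 72 of 74, the exceptions being Cxcl2 at 1.04 and Junb at 1.08 on the log2 scale. Of the 74 targets 30 lay at or below the level of the median probe set, where compressed values narrow the intervals, and among the 44 above it the count was 42. An unadjusted p under 0.05 was reached by 3 of them, Nfkb1 (p = 0.0425) higher and Il12b (p = 0.0419) and Ccl7 (p = 0.0231) lower, each at limma's adjusted p = 0.997. Targets with the promoter motif had a median log2 difference of 0.01 (5 of 10 higher) and those without it -0.04 (14 of 42 higher).

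**Figure D1:**
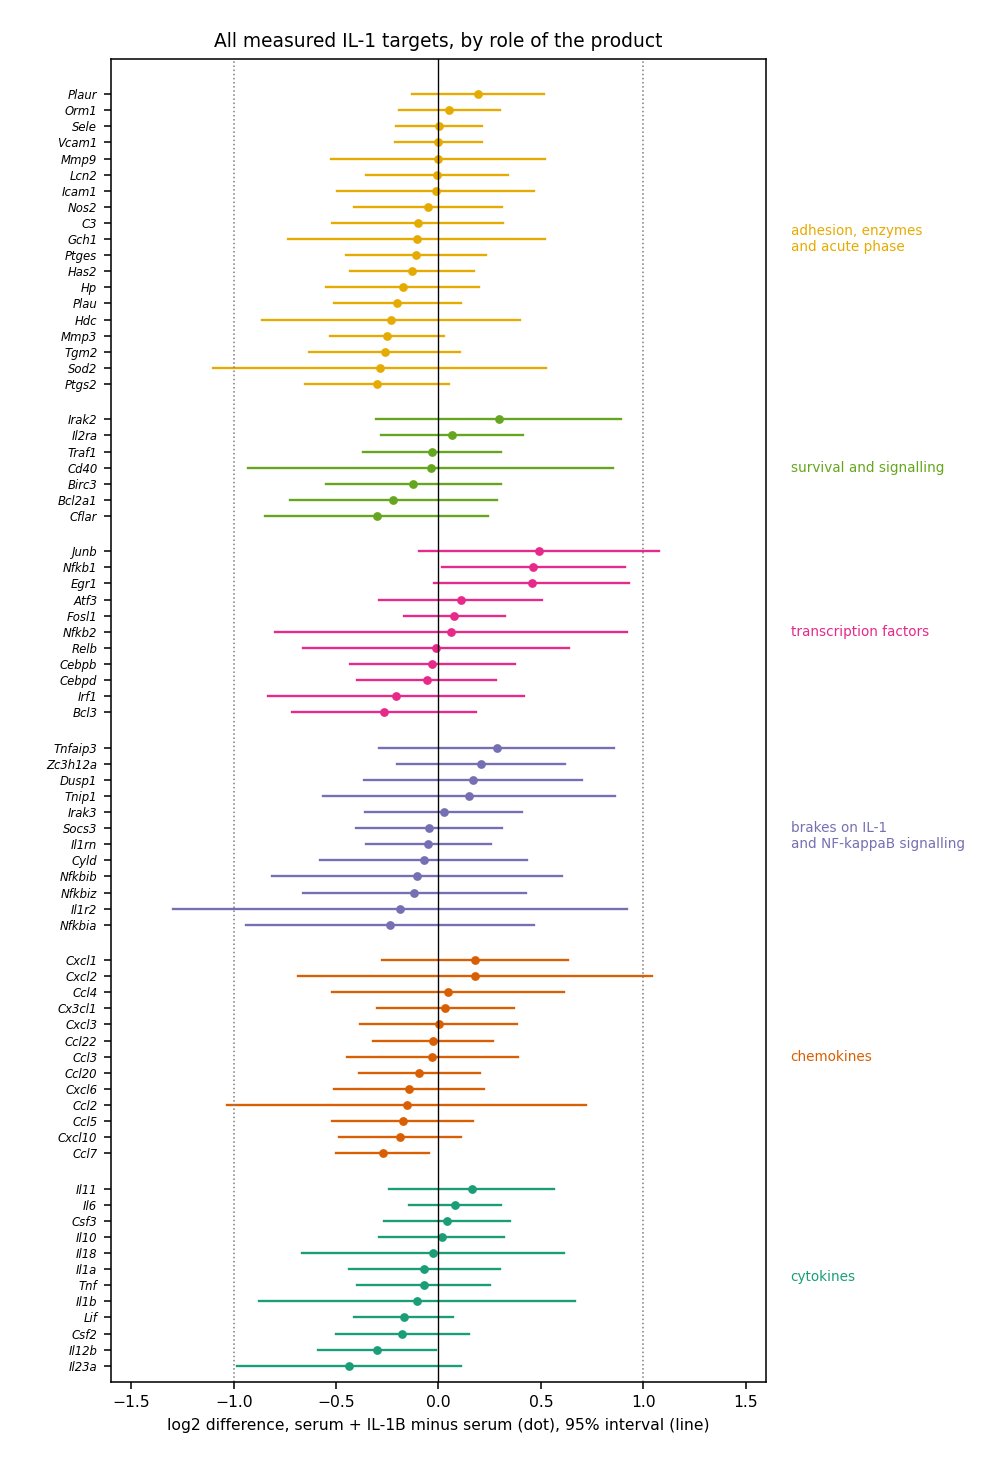
Log2 difference of each of the 74 measured IL-1 targets (dot), serum with IL-1B minus serum, with its 95% interval (line), n = 4 arrays per arm, grouped by role; dotted lines mark a 2-fold change. Nearly all intervals include 0, those of Nfkb1, Il12b and Ccl7 do not, and only those of Cxcl2 and Junb cross the upper dotted line.

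The cytokines gave no sign of induction that passed the test, with 4 of 12 higher and a median of -0.07. Il1b, the precursor of the added cytokine's own rat counterpart and a target of its pathway, read 8.47, 9.07, 8.61 and 8.63 (log2 expression) on IL-1B replicates 1 to 4. Autologous replicates 7 to 10 read 9.35, 9.61, 8.47 and 7.77. The highest and the lowest of the 8 values were both autologous, and the log2 difference was -0.11 (95% interval -0.88 to 0.67). Il6, which drives the acute phase response, read 3.23, 3.18, 3.39 and 3.38 with IL-1B against 2.97, 3.40, 3.25 and 3.22 without. Its difference was 0.08 (-0.14 to 0.31). All 8 values lay below the median probe set, at 5.50, where RMA compresses differences, so this narrow interval does not bound the change of the transcript. The same limit holds, among others below, for Il12b, Cxcl1, Ccl20, Ccl7, Il1rn, Ptgs2, Il1r1 and Il1rl2, whose values all lay under that level. Tnf, an early monocyte cytokine, read 5.81, 5.92, 5.64 and 5.76 against 5.96, 6.10, 5.66 and 5.70. The arms of Tnf overlapped, with a difference of -0.07 (-0.40 to 0.25). The largest decrease among the targets was that of Il23a, a subunit of IL-23, at -0.44 (-0.98 to 0.11). Il12b, the subunit that IL-12 and IL-23 share, differed by -0.30 (-0.59 to -0.01), and IL-1B replicate 4 lay among the autologous values at 4.68.

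The chemokines showed 5 of 13 higher and a median of -0.03. Cxcl1 read 4.15, 4.18, 4.75 and 5.04 with IL-1B and 4.20, 4.77, 4.18 and 4.25 without. IL-1B replicates 3 and 4 and autologous replicate 8 stood above the other 5 arrays, and the difference was 0.18 (-0.28 to 0.63). Cxcl2, another neutrophil chemokine, read 7.97, 7.93, 7.25 and 7.32 against 8.68, 7.65, 6.87 and 6.56. Its autologous values spanned more than its IL-1B values, and the difference of 0.18 had an interval of -0.69 to 1.04. Ccl2, the main attractant of monocytes, read 5.34, 5.94, 4.33 and 4.90 against 5.57, 6.34, 4.63 and 4.59. The arms again overlapped, at a difference of -0.16 (-1.03 to 0.72). Ccl20, which attracts cells that bear Ccr6, differed by -0.09 (-0.39 to 0.20), Ccl3 by -0.03 (-0.45 to 0.39) and Ccl4 by 0.05 (-0.52 to 0.62). Ccl7, a monocyte chemokine, had the lowest difference of the group at -0.27 (-0.50 to -0.04).

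The brakes on IL-1 and NF-kappaB signalling, which respond to IL-1 in many cell types, had 5 of 12 higher and a median of -0.05. Nfkbia read 10.60, 10.61, 9.82 and 10.04 with IL-1B and 10.79, 11.20, 10.45 and 9.58 without. Both extremes were autologous arrays, and the difference was -0.24 (-0.94 to 0.46). Tnfaip3 read 11.09, 10.56, 10.99 and 10.69 against 9.85, 10.41, 11.20 and 10.72. Autologous replicate 7 was the lowest and replicate 9 the highest, with a difference of 0.28 (-0.29 to 0.86). Il1rn, which encodes IL-1RA, read 5.10, 4.74, 5.23 and 4.81 against 4.88, 5.13, 4.99 and 5.08. The IL-1B values of Il1rn enclosed the autologous ones. Its difference was -0.05 (-0.35 to 0.25), among the narrower intervals of the group, at values below the median probe set. Il1r2 read 9.24, 8.83, 7.72 and 7.79 against 9.96, 8.89, 8.15 and 7.34, and its interval of -1.29 to 0.92 was too wide to exclude a 2-fold decrease. Nfkbiz, a nuclear co-regulator of NF-kappaB, differed by -0.12 (-0.66 to 0.43), the kinase-like brake Irak3 by 0.02 (-0.36 to 0.41) and the RNase Zc3h12a by 0.21 (-0.20 to 0.62).

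**Figure D2:**
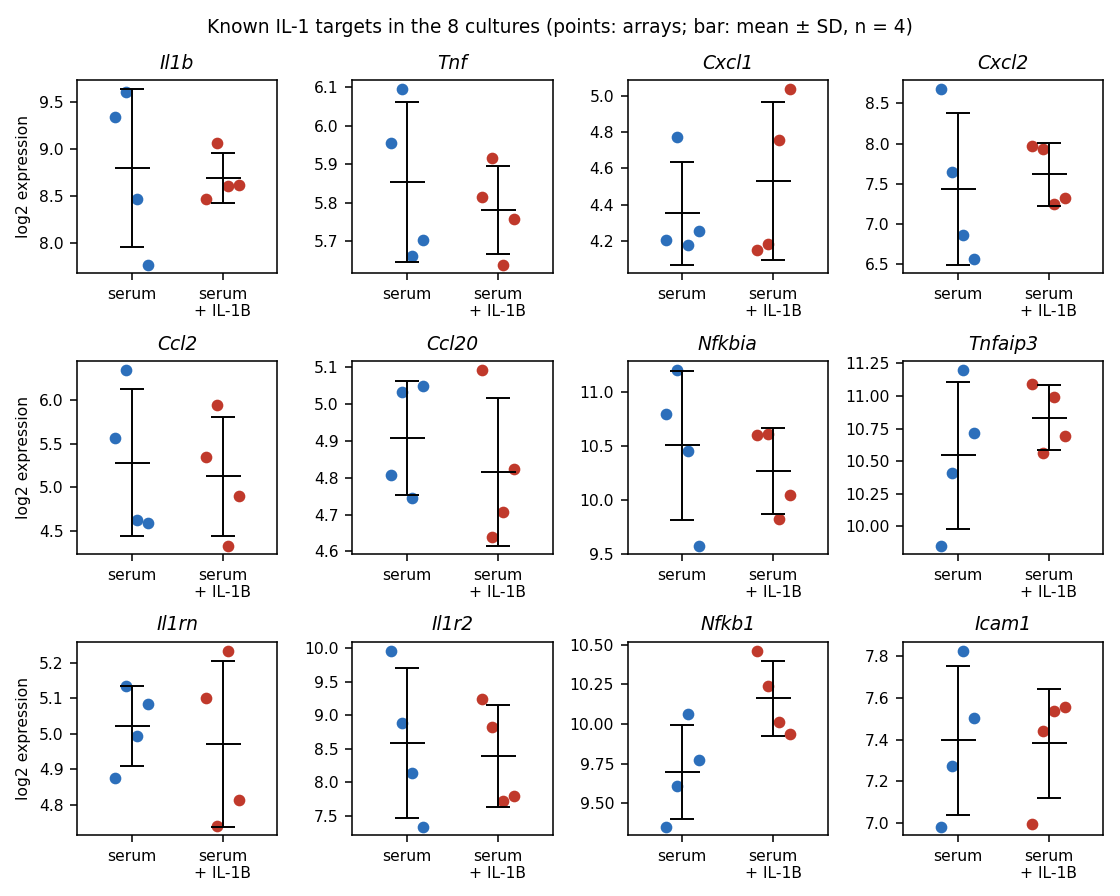
Log2 expression of 12 IL-1 targets in the 4 cultures with autologous serum (blue, replicates 7 to 10 from left to right) and the 4 with serum and IL-1B (red, replicates 1 to 4), with mean ± SD; each panel has its own axis, which does not start at 0. In all 12 panels the arms overlap.

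The transcription factors were the role with the highest median, 0.06, and 6 of 11 were higher. Nfkb1, the p105/p50 subunit of NF-kappaB, read 10.46, 10.24, 10.01 and 9.94 with IL-1B and 9.35, 9.61, 10.06 and 9.77 without. Its difference was 0.46 (0.02 to 0.91) and autologous replicate 9 lay above 2 of the IL-1B arrays. Junb, an AP-1 subunit, read 9.21, 8.69, 7.87 and 8.16 against 7.91, 8.17, 8.00 and 7.87, so that its difference of 0.49 (-0.09 to 1.08) came from IL-1B replicates 1 and 2. Egr1, an immediate early factor, differed by 0.45 (-0.02 to 0.93). Nfkb2 and Relb, the non-canonical NF-kappaB subunits, differed by 0.06 (-0.80 to 0.92) and -0.01 (-0.66 to 0.64).

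Of 7 survival and signalling targets 2 were higher, among them the kinase Irak2 at 0.29 (-0.30 to 0.89), while the apoptosis inhibitor Birc3 differed by -0.12 (-0.55 to 0.30). Of 19 targets for adhesion, enzymes and the acute phase 3 were higher and the median was -0.11. Icam1, the leukocyte adhesion molecule, read 6.99, 7.44, 7.54 and 7.56 with IL-1B and 6.98, 7.27, 7.83 and 7.50 without. The 2 lowest values of Icam1 came 1 from each arm, and its difference was -0.01 (-0.49 to 0.47). Ptgs2, the inducible cyclooxygenase, differed by -0.30 (-0.65 to 0.05), Nos2, the inducible nitric oxide synthase, by -0.05 (-0.41 to 0.31), and Sod2, the mitochondrial superoxide dismutase, by -0.29 (-1.10 to 0.53).

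The pathway's own genes were listed separately, and 36 of 40 had a probe set. With IL-1B 0 of them were called, 16 were higher and 20 lower, and the median was -0.0047. The signalling receptor Il1r1 read 4.77, 4.51, 4.61 and 4.95 with IL-1B and 4.56, 4.53, 4.65 and 5.13 without, a difference of -0.01 (-0.35 to 0.33). Its partner Il1rap differed by 0.18 (-0.12 to 0.48). Values of Il1r1 are RMA log2 values with no detection call, so how much receptor the cells carried cannot be read from them. Casp1, which activates the IL-1B precursor, differed by -0.41 (-0.90 to 0.08). Among 20 adaptors and kinases 13 were higher, with Myd88 at 0.11 (-0.33 to 0.55), Irak4 at 0.003 (-0.36 to 0.36), Traf6 at 0.18 (-0.56 to 0.92) and Tab2, a TAK1-binding adaptor, at 0.63 (-0.05 to 1.32). The arms of 2 of the 36 pathway genes did not overlap, 1 in each direction, beside 0.422% of all genes higher and 1.11% lower. Il18bp, the IL-18 decoy, was above by 0.11 (-0.16 to 0.37), and Il1rl2, the IL-36 receptor, was below by -0.17 (-0.41 to 0.07), both with intervals that include 0.

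The 15 genes with the smallest p did not pass the test and are given as a description. They had limma's unadjusted p from 0.00075 to 0.00802 and adjusted p = 0.997, and 4 were higher and 11 lower. Cygb (cytoglobin, an oxygen-binding protein) led, at 4.49, 4.33, 4.57 and 4.51 with IL-1B against 4.97, 5.04, 4.82 and 5.13 without. Its arms did not overlap, and its difference was -0.51 (-0.76 to -0.27). Inpp4a, a phosphoinositide phosphatase, read 8.32, 8.35, 8.26 and 8.31 against 7.36, 7.59, 7.93 and 7.79, the tightest IL-1B values of the 4 higher genes, at a difference of 0.64 (0.25 to 1.04). The others higher were Bcl9l, Parn and Ripply3, with differences from 0.27 to 0.70. The others lower, from -0.55 to -0.30, were Mapk11, Ptprz1, Lgals12, Klf15, Acrv1, Fam171b, Cpa1, Hhatl, Sema6a and Sh3gl3. All values of the 11 lower genes and of Ripply3 lay below the median probe set, at 5.50, where RMA compresses differences. Other probe sets of Klf15 differed by 0.16 and -0.08 and that of Ptprz1 by -0.02, while those of Sema6a and Fam171b were also lower.

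Other gene groups were also without called members in the IL-1B comparison (0 called in each of 23 lists). The immediate early genes, the first transcripts of a stimulated cell, had 18 of 21 members higher and a median of 0.17. Of all genes 59.5% were lower. Fosb at -0.27 and Egr1 at 0.45, also listed as an IL-1 target, had the smallest p. The arms overlapped, with mean log2 levels of the list from 7.08 to 7.32 with IL-1B and from 6.91 to 7.23 without. When IL-1RA, the antagonist, was added to d60 DRlyp/lyp serum, the same list had 18 of 21 higher and a median of 0.11. Again 0 were called, and 56.6% of all genes were lower. Monocyte markers had 7 of 21 higher and a median of -0.10, and their summed level on the linear scale ran from 8151 to 13304 on IL-1B arrays and from 9688 to 16003 on autologous arrays. Platelet markers, a sign of platelets carried over with the PBMCs, had 4 of 12 higher, with summed levels of 21984 to 50176 and 28012 to 50070. T-cell markers had 7 of 18 higher and held the widest single difference of these lists, Bcl11b at 1.27 (-0.63 to 3.17).

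The 8 arrays differed among themselves along a line that crossed the arms. Correlations over all probe sets ran from 0.975 to 0.988 within the IL-1B arm, from 0.969 to 0.984 within the autologous arm and from 0.962 to 0.992 between arms. The closest pair of all, IL-1B replicate 3 with autologous replicate 9, was a pair between arms. The first principal component (38.27% of variance) set IL-1B replicates 1 and 2 and autologous replicates 7 and 8 apart from IL-1B replicates 3 and 4 and autologous replicates 9 and 10. The means of these subsets, which were drawn from the values themselves and so carry no test, differed by more than the arms did for 51 of 74 IL-1 targets and for 8969 of 14217 genes. Il1r2 differed by 1.48 between subsets and -0.19 between arms, Ccl2 by 1.19 and -0.16, Nfkb2 by 1.15 and 0.06, and Cxcl2 by 1.06 and 0.18. The labels name nothing that divides the arrays so. Within the first subset the IL-1 targets had a median of -0.13 (23 of 74 higher) and within the second 0.01 (40 of 74 higher), from 2 arrays against 2. With the subsets as a block, a step added after the data were seen, 0 probe sets were called and the lowest adjusted p by limma was 0.869. The arms also tracked each other in the order of their numbers. Deviations from the arm means correlated at 0.21 for IL-1B 1 with autologous 7, 0.54 for 2 with 8, 0.63 for 3 with 9 and 0.18 for 4 with 10, and each IL-1B array correlated best with that autologous array. The mean log2 level of T-cell markers was 8.41, 8.91, 9.21 and 8.29 on IL-1B replicates 1 to 4 and 8.34, 8.87, 9.34 and 8.25 on autologous replicates 7 to 10. The labels do not pair these arrays, so this is a hint from the values. With these pairs as a replicate block, also added after the data were seen, 0 probe sets were called, the lowest adjusted p by limma was 0.765 and 1910 probe sets lay at an unadjusted p under 0.05. In that fit 7 IL-1 targets lay under that threshold, 3 higher and 4 lower, beside 4.35% of all genes.

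**Figure D3:**
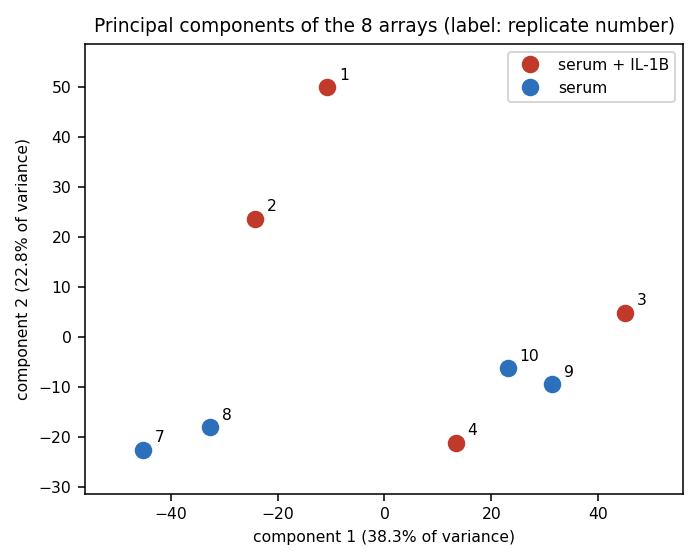
First and second principal components of the 8 arrays (38.27% and 22.76% of variance, arbitrary units), red for serum with IL-1B and blue for serum, labelled by replicate number. Component 1 separates IL-1B 1 and 2 with autologous 7 and 8 from the other 4 arrays, so it runs across the arms.

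The direction of the IL-1 targets depended on the control arrays. With all 10 autologous arrays as controls 0 probe sets were called and the lowest adjusted p was 0.528, but the median of the IL-1 targets was 0.15 with 51 of 74 higher. With those 10 arrays and the replicate number as a block 25 of 74 IL-1 targets were called (21 higher, 4 lower), beside 10876 of 31042 probe sets. By construction only autologous replicates 1 to 4, which lie in the other cluster of arrays, share numbers with the IL-1B arrays, so in that fit the difference between arms and the difference between clusters cannot be told apart. With allogeneic BN serum of the same cluster, 12 arrays, as the control, 0 were called and the lowest adjusted p was 0.0994. That control differs from the IL-1B arrays in allogeneic against autologous serum as well as in IL-1B. The target median was then 0.08, with 47 of 74 higher, against 25 with autologous replicates 7 to 10. At an unadjusted p under 0.05 there were 16 of 74 targets, beside 4725 of 31042 probe sets. With autologous replicates 7 to 10 these counts were 3 and 1118.

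A second comparison set IL-1B arrays directly against arrays with d60 DRlyp/lyp serum, which asks whether added IL-1B left the cells in the same state as that serum. In the main fit, without pairs, it did not for 9 genes, all of them lower with IL-1B. With the replicate number as a block 59 probe sets were called, 7 of them higher. The sera compared also differ in donor strain, in donor age (180 against 60 days) and in being autologous or allogeneic. These differences and that of the added IL-1B cannot be told apart here. The 9 genes were called at an adjusted p under 0.05, 0.0633% of 14217 genes, or 14 of 31042 probe sets (0.0451%). For all 9 the arrays did not overlap, as for 2.15% of genes in that direction. Akr1b8, an aldo-keto reductase induced by oxidative stress, read 5.70, 6.59, 5.36 and 5.64 with IL-1B and 9.22, 8.72, 8.26 and 8.33 with d60 DRlyp/lyp serum. Its level was 7.01-fold lower with IL-1B (log2 -2.81, SE 0.28, limma adjusted p = 0.00212). Nqo1, a quinone reductase of the same antioxidant response, read 6.29, 7.05, 6.37 and 6.60 against 8.38, 8.48, 8.16 and 8.14. It was 3.29-fold lower (log2 -1.72, SE 0.21, limma adjusted p = 0.00614).

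Ccl2 was the only IL-1 target of 74 that was called in this comparison. At an unadjusted p under 0.05 there were 13 targets lower and 0 higher, beside 4.64% of all genes lower and 1.87% higher. It read 5.34, 5.94, 4.33 and 4.90 with IL-1B and 8.26, 7.35, 7.28 and 7.03 with d60 DRlyp/lyp serum, 5.11-fold lower with IL-1B (log2 -2.35, SE 0.33, limma adjusted p = 0.0191). Cxcl2 differed by -1.16 without passing (limma adjusted p = 0.154), and with the replicate number as a block it passed (limma adjusted p = 0.0182). Il1b differed by -0.79 (limma adjusted p = 0.72).

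Of the other 6 genes Vcan, Cd14 and Mpeg1 were on the monocyte marker list. Vcan (versican, a matrix proteoglycan of monocytes) differed by -1.93, Cd14 (the lipopolysaccharide co-receptor) by -1.73, Mpeg1 (perforin-2 of macrophages) by -1.44, Ccr1 (a receptor for CC chemokines) by -1.48, Pilra (an inhibitory receptor of myeloid cells) by -1.54 and Edil3 (an integrin-binding matrix protein) by -0.81. Edil3 had means of 3.33 with IL-1B and 4.14 with d60 DRlyp/lyp serum, below the median probe set, where RMA compresses differences. Its call was lost in 7 of 8 fits with 1 array left out. Of the other 4 probe sets of Vcan 3 were called, at -2.86, -2.10 and -1.59, and the fourth differed by -0.08. A second probe set of Mpeg1 differed by 0.04, so the probe sets of this gene disagree. Of 21 monocyte markers 3 were called, beside 0.0633% of all genes, and 17 were lower with IL-1B, beside 53.5% of all genes. Their summed linear level ran from 8151 to 13304 with IL-1B and from 14471 to 17445 with d60 DRlyp/lyp serum. In such bulk samples fewer cells of a type and less RNA per cell cannot be told apart. All 12 platelet markers were higher with IL-1B, with 0 called and a median of 0.63, and their part in the result was not tested.

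**Figure D4:**
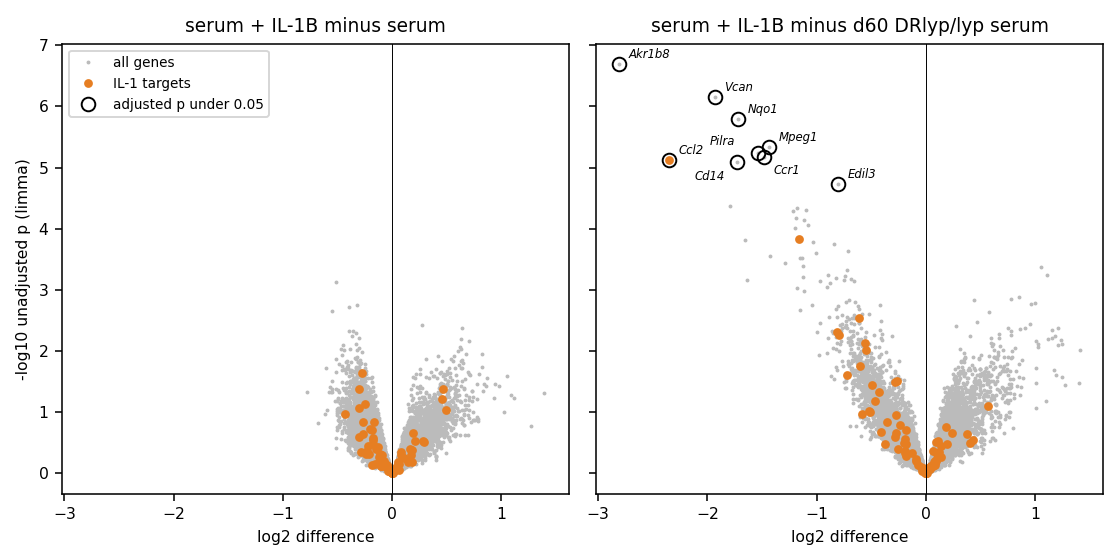
Each of 14217 genes by log2 difference and -log10 of limma's unadjusted p, for IL-1B against autologous serum (left) and IL-1B against d60 DRlyp/lyp serum (right), on the same axes; orange marks the 74 IL-1 targets and circles mark genes with adjusted p under 0.05. No gene is circled on the left and 9 are circled on the right, all with negative differences.

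The same 9 genes had log2 differences from -0.19 to 0.12 between IL-1B and autologous serum, and from 0.80 to 2.74 between d60 DRlyp/lyp and autologous serum. These 2 comparisons share the 4 autologous arrays, and each reuses 4 of the arrays on which the 9 genes were chosen, so the values are given side by side only. In the second of them 2 probe sets (0.00644%) passed, and of all genes 1 (0.00703%), Pilra, was called (limma adjusted p = 0.0451). The numbering of replicates paired the arrays of IL-1B and d60 DRlyp/lyp serum by the correlation of their deviations, just over the minimum, and with that block 59 probe sets were called, 7 higher and 52 lower. With the spread estimated from 32 arrays 5 probe sets were called and 3 of the 9 genes, Akr1b8, Ccl2 and Ccr1, passed. The count fell to 9 probe sets without IL-1B replicate 1, IL-1B replicate 3, or d60 DRlyp/lyp replicate 1, 2 or 4. Akr1b8, Nqo1 and Vcan passed with any 1 array left out, and each of the other 6 genes lost its call at least once, Ccl2 without IL-1B replicate 1 or 4 or d60 DRlyp/lyp replicate 1, 2 or 4 (highest adjusted p 0.0945).

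**Figure D5:**
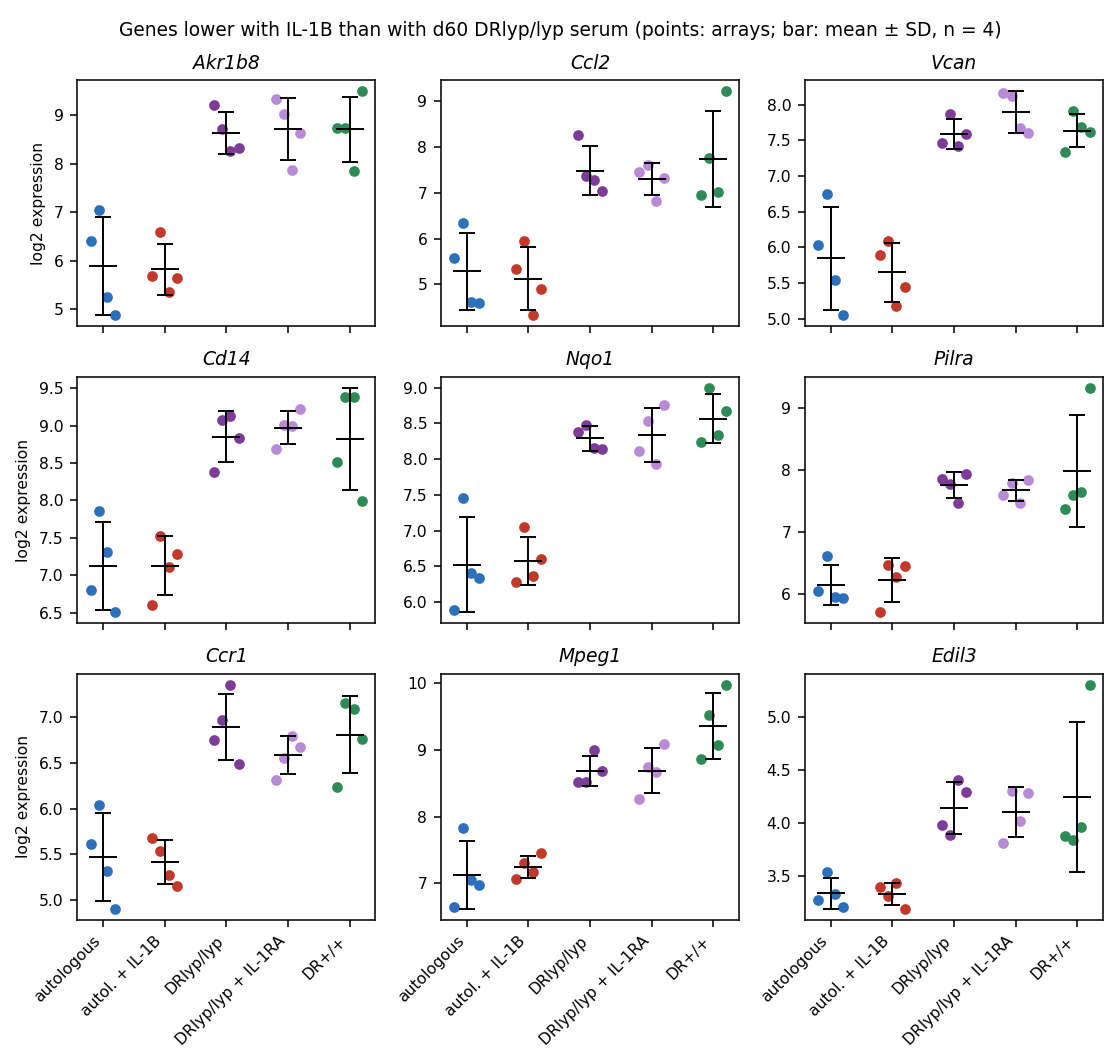
Log2 expression of the 9 genes that were lower with IL-1B than with d60 DRlyp/lyp serum, in autologous serum (replicates 7 to 10), autologous serum with IL-1B, d60 DRlyp/lyp serum, the same serum with IL-1RA, and d60 DR+/+ serum, 4 arrays each with mean ± SD; axes do not start at 0. Autologous arrays with and without IL-1B overlap in all 9 panels and both lie below d60 DRlyp/lyp serum. Arrays with d60 DR+/+ serum also lie above both in all 9 panels and overlap those with d60 DRlyp/lyp serum.

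The last comparison, of IL-1RA added to d60 DRlyp/lyp serum against that serum alone, shares no array with the first. It called 0 probe sets (0%), with a lowest adjusted p by limma of 0.986 and 1493 (4.81%) at an unadjusted p under 0.05. Of the IL-1 targets 0 of 74 were called, 35 were higher and 39 lower, and their median was -0.03, the same as that of all genes. At an unadjusted p under 0.05 there were 3 targets higher and 1 lower, beside 2.08% and 2.31% of all genes. With IL-1RA the differences were 0.53 for C3, the central complement component (p = 0.00797), 0.47 for Cxcl1 (p = 0.00945), 0.42 for Cebpb, a factor of acute phase genes (p = 0.0425), and -0.52 for Nfkbiz (p = 0.0402). These p-values are limma's before adjustment and none passed after it. The 9 genes set apart in the second comparison differed by -0.31 to 0.31 with IL-1RA, a comparison whose control is the same 4 d60 DRlyp/lyp arrays on which they were chosen.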

How the data were processed

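Expression was measured on Affymetrix rat arrays, 1 per culture, and the deposited values are log2 expression per probe set. RMA (background correction, normalisation between arrays, probe summary) and Partek 6.2 are named per the submitters' processing notes. How Partek was used and which RMA release ran are unstated in those notes. RMA compresses differences near background, and carries no detection calls.

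Of 31099 probe sets 57 controls were left out and 31042 tested. The annotation gave 1 symbol for 20826, several for 436 and none for 9780. A gene with several probe sets was represented by the one whose mean over all 53 arrays was highest. Ward clustering gave 2 clusters of arrays, and 32 arrays lay in that of the IL-1B arrays.

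Group means were fitted to the 8 arrays of a comparison with limma 3.58.1 in R 4.3.3 (eBayes with a trend), with Benjamini-Hochberg adjustment over all probe sets and calls at an adjusted p under 0.05. Standard errors (SE), 95% intervals and all p-values of genes are limma's. The precision is limited by the number of arrays. Simulated data with known changes were used to test the model for the IL-1B comparison (31042 probe sets), with 4 arrays per arm and noise independent between arrays. It recovered 73% of 100 changes of log2 1 and 92% of 100 changes of log2 2, with 15 false calls, and real arrays with shared structure may give less.

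Replicate numbers of IL-1B (1 to 4) and autologous arrays (7 to 10) do not overlap, so that comparison was fitted without pairs. Paired in order of number, the lowest correlation of their deviations was 0.183. Between IL-1B and d60 DRlyp/lyp arrays the lowest correlation of same-numbered deviations was 0.109, over the minimum of 0.1. For IL-1RA it was 0.0706, under it. The main results of both comparisons were still fitted without pairs, and the replicate block was run as an alternative.

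Alternatives were other control arrays, wider pools for the spread, a second normalisation, median centring, bright probe sets only, no variance trend, array weights, the actin 3′ minus 5′ signal as a covariate, other thresholds, replicate blocks and leaving out each array. Added after seeing the data were 2 subsets of the 8 arrays as a block, arrays paired in order as a replicate block, 1 or 2 residual components as covariates, values within subsets, and d60 DRlyp/lyp against autologous serum. The comparison, its arrays and the 23 gene lists were chosen with earlier results of these data known. Named genes were any member of the IL-1 target and pathway lists, up to 15 largest called changes in each direction, the 15 smallest p where fewer than 5 genes were called, and in other lists up to 4 called members or the 2 with the smallest p. Bcl11b was in addition chosen for its size. Figures used Python 3.11.15 and matplotlib 3.10.9.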

Additional observations from a re-analysis of the deposited data

Results flagged for a closer look

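In groups of 4 arrays, 1 array stood far from the other 3 in 4 of 134 sets of values examined, and chance gives about 1 in 20. Cxcl1 read 4.77 on autologous replicate 8 against 4.18 to 4.25 on the other autologous arrays. Myd88 read 8.99 on IL-1B replicate 2 against 8.79 to 8.81 on the other IL-1B arrays. Parn, among the 15 genes with the smallest p, read 6.79 on IL-1B replicate 4 against 7.16 to 7.21. Pilra read 6.62 on autologous replicate 8 against 5.93 to 6.05.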

How the results depend on the processing

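The count of 0 called probe sets with IL-1B held under all alternatives except 2. At an unadjusted p under 0.05 there were 1118 probe sets and 3 IL-1 targets. With all 10 autologous arrays and the replicate block there were 10876 of 31042 probe sets (6663 higher, 4213 lower) and 25 of 74 IL-1 targets. The target median was 0.28. In that replicate block 13 named genes took the opposite sign and were called, namely Lgals12 (0.34), Bcl9l (-0.78), Sema6a (0.36), Csf2 (0.63), Ccl7 (0.38), Tnfaip3 (-0.52), Nfkb1 (-0.64), Egr1 (-0.81), Nos2 (0.87), Il1r1 (0.41), Il1rl2 (0.47), Traf6 (-1.42) and Tab2 (-1.29). Without the block the 10 arrays gave a target median of 0.15. For genes that passed in neither fit a change of sign was not counted as a reversal. With arrays paired in order of number as a replicate block 0 were called. Leaving out 1 array gave 0 calls each time and target medians from -0.12 to 0.02. Between IL-1B and d60 DRlyp/lyp serum 14 probe sets became 5 with the spread from 32 arrays, 59 with the replicate block, and 9 to 16 without 1 array. The cause was not tested. With IL-1RA 0 were called under each alternative, the replicate block included (lowest adjusted p by limma 0.229). At 4 arrays per arm a gene's interval had a median half-width of 0.40 on the log2 scale. This width takes each gene alone and is not the smallest change that a call over all probe sets could detect. Inpp4a, at a difference of 0.64 with IL-1B, had limma's adjusted p = 0.997.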

Other observations

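The 15 genes with the smallest p when IL-1RA was added to d60 DRlyp/lyp serum, none of which passed, were looked up in the IL-1B comparison, which shares no array with it. The sign was the same for 13 of 15, beside 65.8% of all genes. Of the 12 that were higher with IL-1RA 11 were also higher with IL-1B. Over all genes 24.9% were higher with both agents. That share is not limited to genes higher with IL-1RA, as most of these 15 were by selection, so it is not a matched background. Kdm6b, a histone demethylase induced in stimulated macrophages, differed by 0.84 with IL-1RA and 0.83 with IL-1B. Mrtfa, a co-activator of serum response factor, differed by 0.83 and 0.55, Cblb, a ubiquitin ligase that restrains T cells, by 0.65 and 0.58, and Elk4, a partner of serum response factor, by 1.12 and 0.68. Tcf3 went the other way, at 0.69 and -0.16, as did Piga, at -0.67 and 0.01. All had limma's adjusted p of at least 0.986 in both comparisons, and the list was chosen on the first of them.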
